A study of Mus musculus with 4 samples.

Results

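The genes described here encode the subunits of voltage-gated sodium channels (*Scn* genes with a number and the letter a or b) and of voltage-gated calcium channels (*Cacna1*, *Cacna2d*, *Cacnb* and *Cacng* genes). They were picked out by a pattern of symbols, which gave 39 of the 23420 genes in the count files. Of these, 31 had 10 or more counts in at least 2 libraries and were tested, as were 14394 genes in all. The counts come from cervical motor neurons (MNs) differentiated from E14 cells, a mouse embryonic stem cell (ESC) line. The sample titles name ESCs, while the source and cell type fields name MNs, and MN markers were present in every library. The groups were 2 libraries of wild type (WT) cells and 2 libraries of *Patz1* -/- cells (*Patz1* KO), made from the same line with CRISPR/Cas9. Both genotypes were grown as embryoid bodies and patterned with retinoic acid and smoothened agonist, so the libraries hold whole cultures and not sorted MNs. PATZ1 is a zinc finger protein that the study examined as an insulator at chromatin boundaries, and the libraries ask which genes change in MNs without it. Several *Patz1* KO clones were made, and the clone behind each library is not given in the labels.

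Sodium channels carry the fast inward current of the action potential through a large alpha subunit, which small beta subunits attach to and modulate. Calcium channels are built on an alpha1 subunit that forms the pore and sets the class of the current: L-type for long openings, P/Q-, N- and R-type for transmitter release, and T-type for openings near the resting potential. The alpha2delta and beta subunits bring calcium channels to the membrane and tune them, while most gamma subunits expressed in neurons are known as partners of AMPA-type glutamate receptors. In MNs these channels set firing and the release of acetylcholine onto muscle.

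Library totals went from 14769104 to 15728158 counts in WT and from 17402342 to 23881522 in *Patz1* KO. Values are given as raw counts or as counts-per-million (CPM) values on library sizes scaled by edgeR's TMM method. The targeted gene *Patz1* had 1363 and 1499 counts in WT against 1154 and 714 in *Patz1* KO, which is 92.8 ± 1.96 against 45.1 ± 3.58 CPM (SD, n = 2 each; log2 fold change -1.04, edgeR adjusted p = 9.93e-08). Of 8 neuron markers, 4 were higher and 1 lower in *Patz1* KO, and of 7 markers of MNs, 6 were higher and 0 lower, where 24.0% of all genes tested were higher and 23.4% lower. The neuron markers summed to 3501 and 3262 CPM in WT and 4628 and 4226 CPM in *Patz1* KO. The largest part of that sum was *Tubb3*, at 1776 and 1569 CPM in WT and 2637 and 2201 CPM in *Patz1* KO. Besides *Tubb3*, the neuron markers *Rbfox3*, *Syt1* and *Stmn2* were higher and *Snap25* was lower, while *Map2*, *Elavl3* and *Elavl4* did not pass the test. The MN markers, none of them at 0 in any library, summed to 576 and 537 CPM in WT and 860 and 784 CPM in *Patz1* KO. Of 5 neural progenitor markers 0 were higher and 3 lower, with sums of 1944 and 1897 CPM in WT and 1496 and 1443 CPM in *Patz1* KO. In such bulk libraries, more cells of a type and more RNA per cell cannot be told apart. The sums of the neuron and MN markers were higher in *Patz1* KO, and more of the channel genes described next were higher than lower. The sum of the progenitor markers went the other way. The part of these markers in the results was not tested.

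Of the 31 channel genes tested, 18 (58.1%) were higher in *Patz1* KO MNs and 3 (9.68%) were lower, and 10 did not pass the test. Calls were made where the p of edgeR's quasi-likelihood test, adjusted by Benjamini-Hochberg over all genes tested, was under 0.05. The shares over all 14394 genes were 24.0% and 23.4%. Among the genes called, the estimated log2 fold change was 1 or more for 10 channel genes, against 5.70% of all genes tested, and -1 or less for 2, against 7.08%. When the change itself was tested against a minimum of 1 on the log2 scale, 5 channel genes were called higher and 0 lower. Of all 14394 genes tested, 274 were called higher and 437 lower at that setting. The median log2 fold change, always given as *Patz1* KO over WT, was 0.54 over the channel genes tested and -0.0014 over all genes. The libraries of the groups did not overlap in CPM for 27 of the 31, against 73.9% of all genes tested. For 3 of the genes tested, *Cacna1i*, *Cacna2d4* and *Cacng8*, the WT libraries alone would not have passed the count threshold. Such genes enter the test only because they are high in *Patz1* KO, so these counts and the median describe the tested genes and do not speak for all 39. Among the genes described below, the calls of *Cacna1a*, *Cacna2d4*, *Cacng2*, *Cacng4*, *Cacng8* and *Scn9a* were each lost in at least 1 of the 4 fits without a library, and those of *Cacna1a*, *Cacna2d4* and *Cacng2* also with DESeq2's Wald test.

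**Figure D1:**
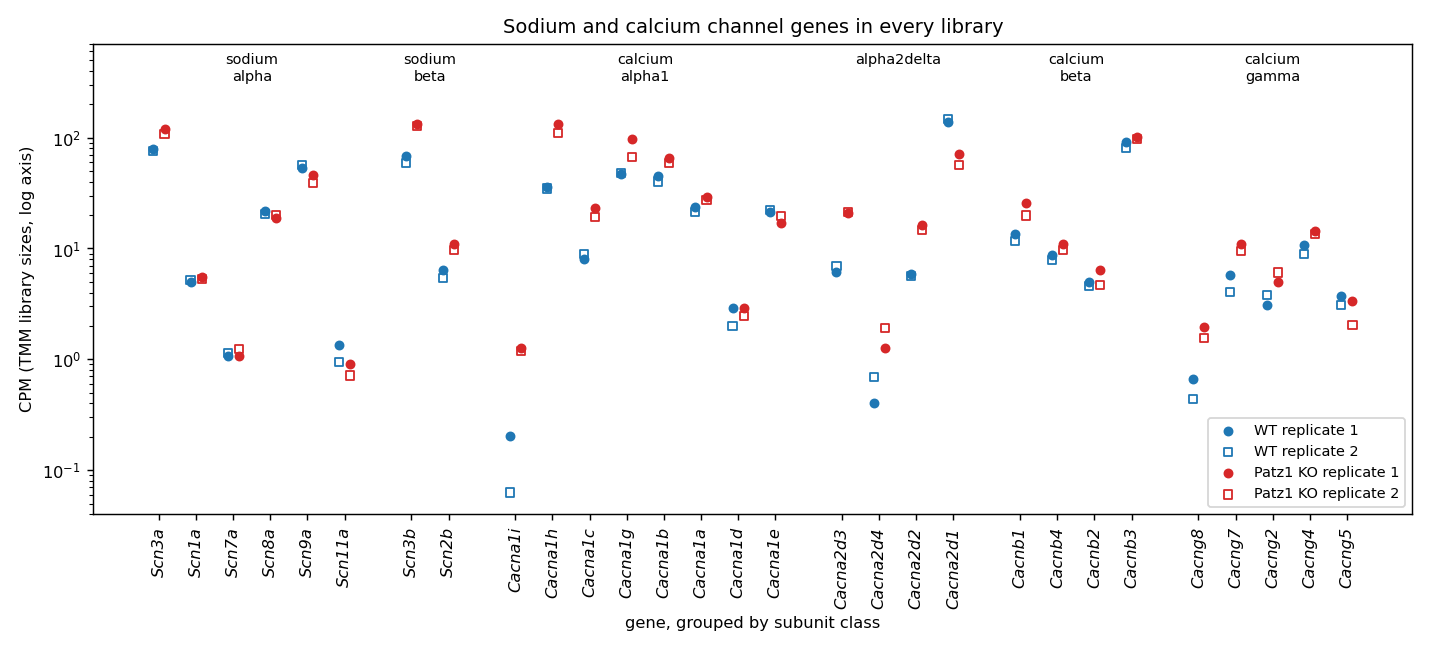
CPM (log axis) of 29 channel genes tested in each of the 4 libraries, with WT in blue and *Patz1* KO in red (circles for replicate 1, squares for replicate 2), grouped by subunit class. The red points of *Cacna1h* and *Cacna2d3* lie well above the blue ones, while those of *Cacna2d1* lie below.

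**Figure D2:**
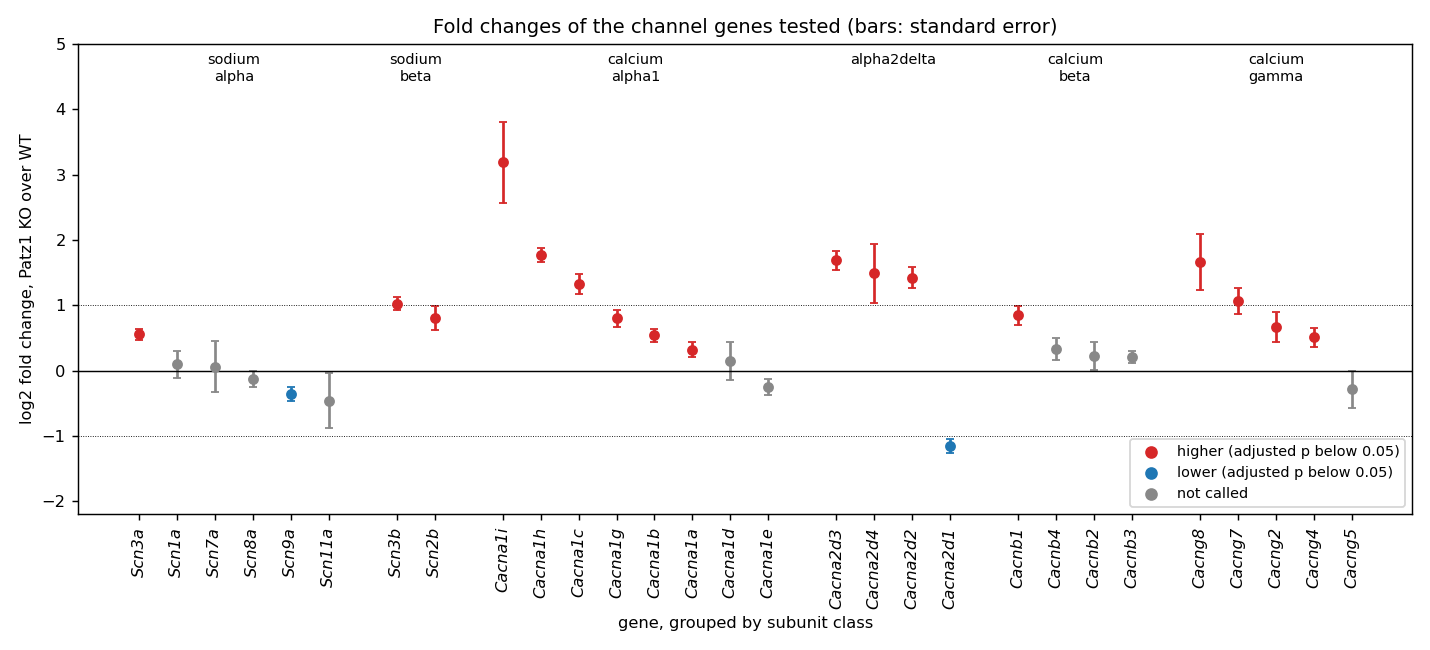
Log2 fold change of the same 29 channel genes, *Patz1* KO over WT, with its standard error as the bar and dotted lines at -1 and 1; red marks genes called higher, blue lower and grey not called. Calcium alpha1 and gamma subunits that passed the test were all higher, and *Cacna2d1* and *Scn9a* are the genes drawn as lower.

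**Figure D3:**
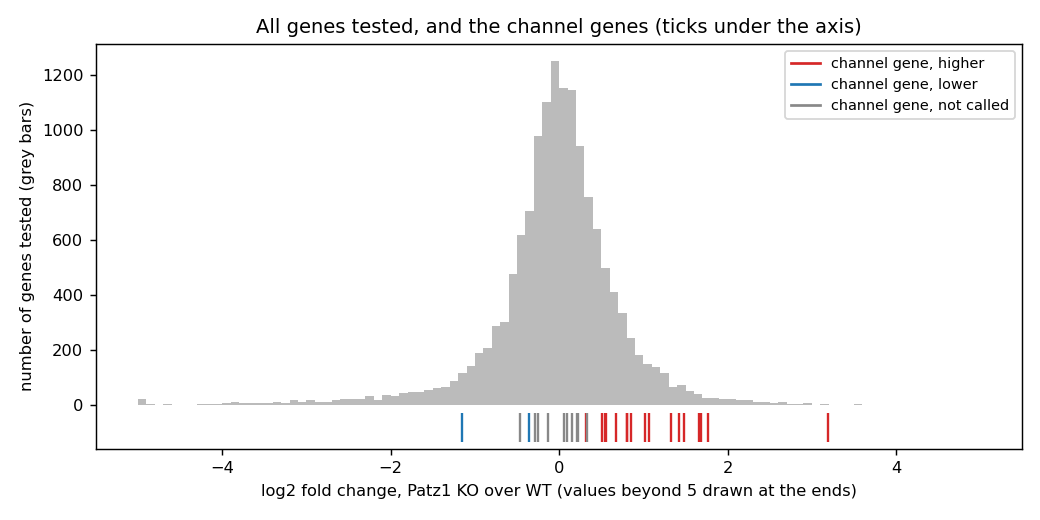
Distribution of the log2 fold changes of all 14394 genes tested (grey bars), with 1 tick under the axis for each of the same 29 channel genes. The ticks reach from -1.16 for *Cacna2d1* to 3.19 for *Cacna1i*, and 23 of them lie above 0.

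Among the sodium channel alpha subunits, *Scn3a* was higher and *Scn9a* lower in *Patz1* KO MNs, while *Scn8a*, *Scn1a*, *Scn7a* and *Scn11a* did not pass the test. *Scn3a*, the alpha subunit best known from the embryonic brain, had 1183 and 1204 counts in WT against 2902 and 1806 in *Patz1* KO. In CPM this was 77.5 ± 2.62 in WT against 113.6 ± 8.55 in *Patz1* KO (SD, n = 2 each), with both *Patz1* KO libraries above both WT libraries. Its log2 fold change was 0.55 (standard error 0.091, edgeR adjusted p = 7.84e-05). *Scn9a*, known for its role in pain-sensing neurons, had 796 and 898 counts in WT against 1122 and 659 in *Patz1* KO. On the CPM scale, which takes the deeper *Patz1* KO libraries into account, it fell from 54.9 ± 2.15 to 42.8 ± 4.96 (SD, n = 2 each). *Scn9a* had a log2 fold change of -0.36 (standard error 0.10, edgeR adjusted p = 0.0082), and without WT replicate 2 the adjusted p was 0.102.

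*Scn8a*, the alpha subunit of axon initial segments and nodes of Ranvier in mature axons, stayed at 21.2 ± 0.886 CPM in WT and 19.4 ± 1.07 CPM in *Patz1* KO (SD, n = 2 each; log2 fold change -0.13, standard error 0.12). *Scn1a*, best known from inhibitory interneurons, had a log2 fold change of 0.096 (standard error 0.21). *Scn7a*, which encodes a sodium-sensing relative of these channels, had 16 and 18 counts in WT against 26 and 21 in *Patz1* KO (log2 fold change 0.060, standard error 0.39). *Scn11a*, a channel of sensory neurons, had 20 and 15 counts in WT against 22 and 12 in *Patz1* KO (log2 fold change -0.46, standard error 0.42). The standard errors of *Scn7a* and *Scn11a*, the tested alpha subunits with the fewest counts, leave room for changes in either direction. *Scn10a* (0 or 1 count) and *Scn4a* (0 to 4 counts) were not tested.

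A further alpha subunit, which the files list under the older symbol *Scn2a1* and whose current symbol is *Scn2a*, does not match the pattern of symbols and was left out of the counts above. It had 370 and 370 counts in WT against 962 and 525 in *Patz1* KO, for a log2 fold change of 0.57 (standard error 0.12, edgeR adjusted p = 0.000912).

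Because long transcripts gather more reads, levels of different genes were compared as CPM per kb of annotated exon. *Scn3a* was the leading alpha subunit in all 4 libraries, at 6.22 ± 0.210 CPM per kb in WT and 9.12 ± 0.686 in *Patz1* KO (SD, n = 2 each). It was followed by *Scn9a* at 4.30 ± 0.168 in WT and 3.35 ± 0.388 in *Patz1* KO, then *Scn2a1* at 1.89 ± 0.0872 and 2.79 ± 0.466, and *Scn8a* at 1.34 ± 0.0562 and 1.23 ± 0.0678. In *Patz1* KO, the level of *Scn9a* in the lower library (3.07 CPM per kb) was below that of *Scn2a1* in the higher one (3.12), so these neighbours overlapped there, although *Scn9a* was above *Scn2a1* within each library. Of the summed per-kb level of the alpha subunits, *Scn2a1* included, *Scn3a* took 42.5% and 41.4% in WT and 52.0% and 53.0% in *Patz1* KO. The share of *Scn9a* was 27.9% and 30.1% in WT and 19.6% and 18.9% in *Patz1* KO. Shares are given as a description and were not tested; an exact permutation test of 2 and 2 libraries allows no p below 1 in 3.

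**Figure D4:**
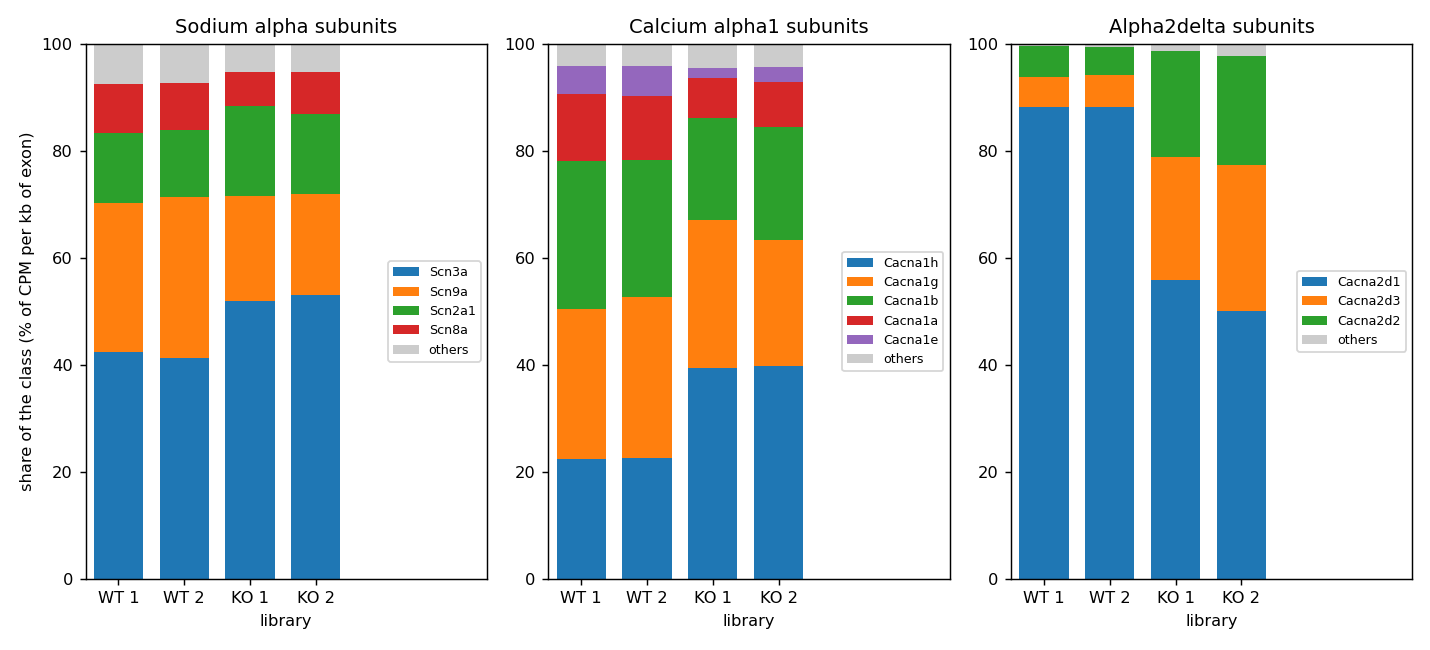
Share of each gene in the summed CPM per kb of exon of its class, as stacked bars for the 2 WT and 2 *Patz1* KO libraries; small members are pooled as others. *Cacna2d1* takes about 88% of its class in WT and 50.1% to 55.8% in *Patz1* KO, and *Cacna1h* goes from about 22.6% to about 39.6% of the alpha1 subunits.

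Of the sodium channel beta subunits, *Scn3b* and *Scn2b* were higher in *Patz1* KO MNs. *Scn3b*, which binds alpha subunits without a covalent bond, was by far the most abundant beta subunit. It had 1016 and 934 counts in WT against 3194 and 2119 in *Patz1* KO, or 11.6 ± 1.23 and 23.6 ± 0.711 CPM per kb (SD, n = 2 each). *Scn3b* had a log2 fold change of 1.02 (standard error 0.095, edgeR adjusted p = 1.14e-07). *Scn2b*, which is joined to alpha subunits by a disulfide bond, had 96 and 87 counts in WT against 267 and 163 in *Patz1* KO (log2 fold change 0.81, standard error 0.18, edgeR adjusted p = 0.00129). In each of these genes both *Patz1* KO libraries were above both WT libraries in CPM. Groups did not overlap for 73.9% of all genes tested. *Scn4b* had 0 to 2 counts and was not tested.

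Calcium channel alpha1 subunits were higher in 6 (75%) and lower in 0 of the 8 genes tested. Over all genes tested, 24.0% were higher and 23.4% lower. All 3 T-type genes were higher, *Cacna1i* among them, which passed the count threshold only through *Patz1* KO. *Cacna1h* had 537 and 553 counts in WT against 3197 and 1843 in *Patz1* KO, that is, 35.4 ± 0.900 CPM in WT and 121 ± 15.6 CPM in *Patz1* KO (SD, n = 2 each). *Cacna1h* thus had a log2 fold change of 1.77 (standard error 0.10, edgeR adjusted p = 3.35e-10), which lay between 1.63 and 1.90 in the fits without 1 library. *Cacna1g* had 695 and 759 counts in WT against 2343 and 1130 in *Patz1* KO (log2 fold change 0.80, standard error 0.13, edgeR adjusted p = 5.76e-05). The *Patz1* KO libraries of *Cacna1g* lay apart, at 96.6 and 67.3 CPM, and the log2 fold change was 0.51 without *Patz1* KO replicate 1. *Cacna1i* was near the detection limit in WT, with 3 and 1 counts, and had 31 and 20 in *Patz1* KO. Pooled over the libraries of a group and scaled to their size, this is a ratio of 9.57 with an exact 95% interval from 3.52 to 36.4 that covers counting error only. The edgeR adjusted p of *Cacna1i* was 0.000406, and its fitted log2 fold change of 3.19 (standard error 0.62) depends on the prior count and was 4.17 without WT replicate 1 and 2.59 without WT replicate 2. Together the T-type genes had 82.9 and 82.5 CPM in WT and 229.7 and 178 CPM in *Patz1* KO, 2.47 times as much.

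*Cacna1c*, the L-type subunit shared with heart and smooth muscle, had 121 and 141 counts in WT against 564 and 320 in *Patz1* KO, for a log2 fold change of 1.32 (standard error 0.15, edgeR adjusted p = 1.13e-06). *Cacna1d*, the other L-type subunit of neurons, had 43 and 32 counts in WT against 71 and 41 in *Patz1* KO, and its groups overlapped in CPM (log2 fold change 0.15, standard error 0.29). Its exons overlap those of *Chdh* on the other strand.

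The alpha1 subunits of transmitter release moved less than the T-type genes and *Cacna1c*. *Cacna1b*, the N-type subunit, had 673 and 640 counts in WT against 1573 and 992 in *Patz1* KO, for a log2 fold change of 0.54 (standard error 0.10, edgeR adjusted p = 0.000252). *Cacna1a*, the P/Q-type subunit that triggers release at the mature neuromuscular junction, had 354 and 339 counts in WT against 705 and 456 in *Patz1* KO. The rise of 0.32 on the log2 scale (standard error 0.11) was close to the threshold (edgeR adjusted p = 0.0273), which it missed with DESeq2's Wald test (adjusted p = 0.101), with library size scaling alone (0.0613) and without WT replicate 1 (0.0641), WT replicate 2 (0.281) or *Patz1* KO replicate 1 (0.0548). *Cacna1e*, the R-type subunit, had 319 and 352 counts in WT against 411 and 331 in *Patz1* KO. The log2 fold change of *Cacna1e* was -0.25 (standard error 0.12, edgeR adjusted p = 0.103), and without *Patz1* KO replicate 2 it was -0.36 with an adjusted p of 0.0128.

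On the per-kb scale, the 3 leading alpha1 subunits in WT were *Cacna1g* (4.65 ± 0.0750 CPM per kb), *Cacna1b* (4.29 ± 0.351) and *Cacna1h* (3.63 ± 0.0922; SD, n = 2 each). The highest *Cacna1b* library (4.54) was just under the lowest *Cacna1g* library. In *Patz1* KO the order was *Cacna1h* (13.5 and 11.2 CPM per kb), *Cacna1g* (9.53 and 6.64) and *Cacna1b* (6.52 and 5.94). None of these neighbours overlapped, but the lower *Cacna1g* library was close to the higher *Cacna1b* library. The share of *Cacna1h* among all alpha1 subunits was 22.4% and 22.7% in WT and 39.4% and 39.9% in *Patz1* KO. The exons of *Cacna1h* overlap those of *Tpsg1* on the other strand.

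*Cacna1s*, the alpha1 subunit of skeletal muscle, had 1 to 6 counts and *Cacna1f*, known from the retina, had 0 to 5, so neither was tested. The skeletal muscle markers *Ttn*, *Acta1* and *Myh3*, the 3 of 7 that were tested, were all lower in *Patz1* KO, and the 7 markers summed to 9.66 and 10.2 CPM in WT and 3.55 and 4.23 CPM in *Patz1* KO. Over all genes tested, 23.4% were lower. *Ckm* was at 0 in all 4 libraries, and *Myod1* had counts only in WT replicate 2. *Myog*, also untested, went the other way, with 4 and 5 counts in WT against 10 and 9 in *Patz1* KO. *Myl1* had 2 and 6 counts in WT against 1 and 3 in *Patz1* KO.

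The alpha2delta subunits moved in opposite directions. *Cacna2d1*, the most abundant of them and a binding site of gabapentin, had 2073 and 2327 counts in WT against 1733 and 944 in *Patz1* KO. In CPM it fell from 143 ± 5.07 in WT to 63.8 ± 10.8 in *Patz1* KO (SD, n = 2 each), and the log2 fold change was -1.16 (standard error 0.10, edgeR adjusted p = 8.63e-08), and lay between -1.34 and -0.99 in the fits without 1 library. *Cacna2d2*, the other binding site of gabapentin, had 88 and 89 counts in WT against 392 and 245 in *Patz1* KO, for a log2 fold change of 1.42 (standard error 0.16, edgeR adjusted p = 1.3e-06). *Cacna2d3*, which gabapentin does not bind, had 91 and 111 counts in WT against 504 and 361 in *Patz1* KO. This was 6.54 ± 0.616 CPM in WT and 21.1 ± 0.509 CPM in *Patz1* KO (SD, n = 2 each), and the log2 fold change was 1.69 (standard error 0.15, edgeR adjusted p = 5.77e-08). *Cacna2d4*, best known from the retina, was low in both groups, with 6 and 11 counts in WT against 31 and 32 in *Patz1* KO. The log2 fold change of *Cacna2d4* was 1.49 (standard error 0.45, edgeR adjusted p = 0.0115), and the adjusted p was 0.13 without WT replicate 1 and 0.06 with DESeq2's Wald test.

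*Cacna2d1* took 88.3% and 88.2% of the per-kb level of the alpha2delta subunits in WT and 55.8% and 50.1% in *Patz1* KO. *Cacna2d2* went from 5.86% and 5.27% to 19.7% and 20.3%, and *Cacna2d3* from 5.52% and 5.99% to 23.1% and 27.3%. *Cacna2d1* was still the leading member in both *Patz1* KO libraries. The class as a whole was the only one of the 6 subunit classes whose summed CPM was lower in *Patz1* KO, at 152 and 160 CPM in WT and 109.7 and 94.2 CPM in *Patz1* KO.

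*Cacna2d4*, also called higher, had no promoter window at hand. The promoter windows of the other 3 alpha2delta genes are shown because these moved in opposite directions and because PATZ1 is known to bind G-rich sequences. Each is taken from RefSeq on GRCm38.p6, the assembly also called mm10, and runs 5′ to 3′ on the strand of the gene from 250 bases before its start to 50 after. Capitals mark each match to GGGAGGG on either strand, so that a match on the other strand reads as its complement. The window of *Cacna2d1* is chr5:15934441-15934740 on the plus strand, that of *Cacna2d2* is chr9:107399630-107399929 on the plus strand, and that of *Cacna2d3* is chr14:29721815-29722114 on the minus strand.
Cacna2d1: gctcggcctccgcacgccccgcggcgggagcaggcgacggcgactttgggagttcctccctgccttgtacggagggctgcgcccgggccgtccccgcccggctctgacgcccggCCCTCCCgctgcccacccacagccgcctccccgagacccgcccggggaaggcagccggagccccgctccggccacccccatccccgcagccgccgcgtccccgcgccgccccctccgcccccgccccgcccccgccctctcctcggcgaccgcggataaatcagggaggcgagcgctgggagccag
Cacna2d2: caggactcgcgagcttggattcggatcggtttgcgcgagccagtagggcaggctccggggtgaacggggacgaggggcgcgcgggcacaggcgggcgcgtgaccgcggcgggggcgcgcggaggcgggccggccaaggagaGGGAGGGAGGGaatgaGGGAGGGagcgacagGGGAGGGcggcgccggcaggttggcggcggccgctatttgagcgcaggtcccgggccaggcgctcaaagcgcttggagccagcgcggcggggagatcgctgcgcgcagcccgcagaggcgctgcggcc
Cacna2d3: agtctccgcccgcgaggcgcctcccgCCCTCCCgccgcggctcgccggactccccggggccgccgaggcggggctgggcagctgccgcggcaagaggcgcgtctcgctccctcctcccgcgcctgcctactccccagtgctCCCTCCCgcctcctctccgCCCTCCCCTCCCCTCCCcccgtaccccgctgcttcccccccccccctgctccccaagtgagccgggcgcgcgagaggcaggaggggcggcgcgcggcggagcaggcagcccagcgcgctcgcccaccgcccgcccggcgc

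The window of *Cacna2d1* held 1 match, that of *Cacna2d2* held 4 and that of *Cacna2d3* held 5, some of them overlapping, at a GC content of 80%, 75.7% and 81.3%. RefSeq windows were at hand for 29 of the 39 channel genes, 39 windows in all, since some genes have more than 1 start. GGGAGGG was found in 15 of these 39 windows (38.5%) and in 22.0% of all 32851 windows. The related GGGGNGGGG, which can overlap it, was found in 12 (30.8%) and in 22.4%. Only 10 of the 18 channel genes higher in *Patz1* KO and 2 of the 3 lower had a window. *Cacna1h* and *Cacna1g* had none. Among genes with a window, GGGAGGG was present at least once in 7 of 10 that were higher and 1 of 2 that were lower. It was also present in 4 of 10 that did not pass the test and 2 of 7 that were not tested. Genes with more than 1 window had more chances of a match, and no share by gene over all genes was computed. Among the 10 higher genes, *Cacna1i* and *Cacng8* passed the count threshold only through *Patz1* KO. A match is a description of the letters and not evidence of binding, and no match says only that these letters are not in the window.

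Of the 4 beta subunits of calcium channels, which bind the alpha1 subunit inside the cell, 1 was higher and 0 lower in *Patz1* KO. The share higher, 25%, was near the 24.0% of all genes tested, while 23.4% of all genes were lower. *Cacnb1* was the gene that passed the test. It had 203 and 187 counts in WT against 619 and 333 in *Patz1* KO, for a log2 fold change of 0.85 (standard error 0.15, edgeR adjusted p = 0.000117). Its *Patz1* KO libraries, at 25.5 and 19.8 CPM, were both above the 13.6 and 11.8 CPM of WT. *Cacnb3*, the leading beta subunit at 21.6 ± 1.87 CPM per kb in WT and 25.0 ± 0.723 in *Patz1* KO (SD, n = 2 each), had 1371 and 1295 counts in WT against 2477 and 1646 in *Patz1* KO. The log2 fold change of *Cacnb3* was 0.21 (standard error 0.092, edgeR adjusted p = 0.0715), and it passed the threshold without *Patz1* KO replicate 2 (adjusted p = 0.011). *Cacnb4* had a log2 fold change of 0.33 (standard error 0.17, edgeR adjusted p = 0.116) and was called only without *Patz1* KO replicate 2 (adjusted p = 0.0348). *Cacnb2*, the main beta subunit of the heart, overlapped between the groups (log2 fold change 0.22, standard error 0.22). The share of *Cacnb3* among the beta subunits was 84.0% and 84.2% per kb in WT and 77.6% and 80.8% in *Patz1* KO.

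Of the 8 gamma subunits, 5 were tested and 4 were higher in *Patz1* KO (80%, against 24.0% of all genes). *Cacng8*, counted among them, passed the count threshold only through *Patz1* KO. *Cacng2*, which encodes stargazin, the founding auxiliary subunit of AMPA receptors, had 46 and 60 counts in WT against 120 and 102 in *Patz1* KO (log2 fold change 0.67, standard error 0.23, edgeR adjusted p = 0.0247). *Cacng4*, of the same group, had 160 and 143 counts in WT against 351 and 226 in *Patz1* KO (log2 fold change 0.51, standard error 0.15, edgeR adjusted p = 0.0109). *Cacng8*, also of this group, had 10 and 7 counts in WT against 47 and 26 in *Patz1* KO (log2 fold change 1.66, standard error 0.43, edgeR adjusted p = 0.00361). *Cacng7* had 86 and 65 counts in WT against 266 and 160 in *Patz1* KO, for a log2 fold change of 1.07 (standard error 0.20, edgeR adjusted p = 0.000265). In these 4 genes the groups did not overlap, as was so for 73.9% of all genes tested. *Cacng2* was not called without WT replicate 1, WT replicate 2 or *Patz1* KO replicate 2 (log2 fold change 0.54, 0.83 and 0.53). Nor was it called with DESeq2's Wald test (adjusted p = 0.0892). *Cacng4* and *Cacng8* were not called without WT replicate 2 (adjusted p = 0.177 and 0.0664). *Cacng5*, a relative of *Cacng7*, had 55 and 49 counts in WT against 82 and 34 in *Patz1* KO, with overlapping groups (log2 fold change -0.29, standard error 0.29).

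*Cacng1*, the gamma subunit of the skeletal muscle channel, was the untested channel gene with the highest count, with 1 and 0 counts in WT against 3 and 8 in *Patz1* KO. *Cacng3* had 0 to 4 counts and *Cacng6* 0 to 3. Differences in the 8 untested genes were not detectable at this depth, where a count of 0 allows up to 0.126 to 0.203 CPM (3 counts of the library total, for counting error only).

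Many of these genes lie in clusters of related copies, so that neighbours could be compared. On chromosome 2 of GRCm38, *Scn3a* (65457118 to 65567627, minus strand) and *Scn2a1* (65620771 to 65767447, plus strand) are followed by *Scn1a* (66270778 to 66440840), *Scn9a* (66480080 to 66634962) and *Scn7a* (66673425 to 66784914), all on the minus strand. Along this row the log2 fold changes were 0.55, 0.57, 0.096, -0.36 and 0.060, so *Scn3a* and *Scn2a1* rose and *Scn9a* fell within 1 cluster. The exons of *Scn9a* overlap the antisense gene *Gm13629*. On chromosome 9, *Scn10a* (119608456 to 119719322) and *Scn11a* (119753759 to 119825456) lie side by side, the former untested and the latter not called. The beta subunit genes *Scn2b* (45117782 to 45130070) and *Scn4b* (45138395 to 45154152) are neighbours on the same chromosome, and *Scn2b* rose while *Scn4b* was near 0 counts.

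The gamma subunits form a triplet on chromosome 11, *Cacng1* (107703218 to 107716522), *Cacng4* (107732357 to 107794557) and *Cacng5* (107874605 to 107915055), and another on chromosome 7, *Cacng7* (3332955 to 3368221), *Cacng8* (3390683 to 3415648) and *Cacng6* (3424195 to 3435667). On chromosome 11 only *Cacng4* was called, and on chromosome 7 both tested members, *Cacng7* and *Cacng8*, were higher. *Cacna2d1* lies on chromosome 5 (15934691 to 16374511), *Cacna2d2* on chromosome 9 (107399612 to 107529343, overlapping the antisense gene *Gm17141*), *Cacna2d3* on chromosome 14 (28904943 to 29721864), *Cacna1h* on chromosome 17 (25374285 to 25433783) and *Scn3b* on chromosome 9 (40269217 to 40291618). Exons of 10 of the 31 genes tested overlap those of another annotated gene, and the strand setting of the counting is not given in the sources used here, so part of their counts may belong to the other gene.

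Proteins that anchor, traffic or regulate these channels were described from 4 lists with 38 genes, 37 of them tested. Of these, 11 were higher (29.7%, against 24.0% of all genes) and 5 lower (13.5%, against 23.4%). Their median log2 fold change was 0.16.

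Among 12 partners of sodium channels, 4 were higher (33.3%, against 24.0% of all genes) and 1 lower (8.33%, against 23.4%). *Cntn1*, a cell adhesion protein, had 937 and 940 counts in WT against 2258 and 1505 in *Patz1* KO (log2 fold change 0.58, standard error 0.091, edgeR adjusted p = 4.31e-05). *Sptbn4*, the spectrin of axon initial segments, had 70 and 90 counts in WT against 264 and 180 in *Patz1* KO (log2 fold change 1.06, standard error 0.18, edgeR adjusted p = 0.000116). *Ank2* was the lower one, at 151 ± 2.12 CPM in WT and 115 ± 8.57 CPM in *Patz1* KO (SD, n = 2 each; log2 fold change -0.39, standard error 0.088, edgeR adjusted p = 0.00138). *Ank3*, which gathers sodium channels at the axon initial segment, had a log2 fold change of -0.096 (standard error 0.088).

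Of 16 partners of calcium channels, 15 were tested, 5 higher (33.3%, against 24.0% of all genes) and 3 lower (20%, against 23.4%). *Rimbp2*, which ties calcium channels to the release site, had 194 and 217 counts in WT against 708 and 412 in *Patz1* KO (log2 fold change 1.02, standard error 0.13, edgeR adjusted p = 4.81e-06). *Cabp1*, a calcium-binding protein related to calmodulin, had 76 and 76 counts in WT against 300 and 216 in *Patz1* KO (log2 fold change 1.35, standard error 0.17, edgeR adjusted p = 5.08e-06). *Calm3*, 1 of 3 genes for the same calmodulin protein, had a log2 fold change of 0.46 (standard error 0.10, edgeR adjusted p = 0.00124), and without WT replicate 2 the adjusted p was 0.09. The 3 lower genes were *Stac2*, *Rem2* and *Gem*, of which *Rem2* and *Gem* encode small GTP-binding proteins that inhibit calcium channels. Their log2 fold changes were -0.98 for *Stac2* (standard error 0.22, edgeR adjusted p = 0.00154) and -0.55 for *Rem2* (standard error 0.14, edgeR adjusted p = 0.00367). That of *Gem* was -1.11 (standard error 0.43, edgeR adjusted p = 0.0427), close to the threshold. *Gem* had only 19 and 22 counts in WT against 12 and 13 in *Patz1* KO. How these 3 calls hold in the other fits was not examined gene by gene. *Rrad*, of the same family as *Rem2* and *Gem*, had a log2 fold change of 0.56 (standard error 0.33, edgeR adjusted p = 0.169), and *Rem1*, also of that family, had 1 to 12 counts and was not tested. These 5 genes were named after their values were seen.

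Of the 4 genes of the sodium leak channel, *Fam155a* was higher (log2 fold change 0.43, standard error 0.10, edgeR adjusted p = 0.00204), while *Unc79* (0.22, standard error 0.10; called without *Patz1* KO replicate 2, adjusted p = 0.00828) and the pore subunit *Nalcn* (-0.11, standard error 0.14) did not pass. The share higher in that list, 25%, was near the 24.0% of all genes. Of 6 genes of calcium release from internal stores, *Itpr1* was higher (16.7%) and *Ryr3* lower (16.7%, against 23.4% of all genes). *Itpr1*, an IP3 receptor, had 479 and 550 counts in WT against 1471 and 959 in *Patz1* KO (log2 fold change 0.82, standard error 0.099, edgeR adjusted p = 2.38e-06). *Ryr3*, a ryanodine receptor, had 132 and 203 counts in WT against 156 and 107 in *Patz1* KO, for a log2 fold change of -0.76 (standard error 0.19, edgeR adjusted p = 0.00326), and the adjusted p was 0.189 without WT replicate 2. *Itpr2* did not pass (log2 fold change 0.35, standard error 0.16, edgeR adjusted p = 0.0779) except without *Patz1* KO replicate 1 (adjusted p = 0.0449).

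Markers of other cells that use these channels were also counted. Of 5 sensory neuron markers, 4 were tested and 0 passed, and their sum was 13.8 and 11.2 CPM in WT and at most 16.1 CPM in *Patz1* KO. Of 5 heart muscle markers, 1 was tested and did not pass, and all 5 together summed to no more than 2.28 CPM in any library. Of 5 glial markers, 3 were tested, 1 higher and 0 lower, with sums of 56.4 and 61.4 CPM in WT and 88.2 and 73.0 CPM in *Patz1* KO, and *Gfap* had no more than 1 count in any library. Of 6 primitive endoderm markers, 4 were lower and 0 higher, with sums of 31.5 and 35.6 CPM in WT and 5.20 and 6.31 CPM in *Patz1* KO. Over all genes tested, 24.0% were higher and 23.4% lower. The part of these cells in the channel results was not tested.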

How the data were processed

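RNA-seq was performed by the authors on 2 WT and 2 *Patz1* KO libraries of cervical MNs, from total RNA depleted of ribosomal RNA. Per the submitters' processing notes, TopHat2 2.1.1, Bowtie2 2.3.1 and featureCounts 1.6.2 were used with mm10, and the paper names another release of Bowtie 2. The annotation and the strand setting of the counting are not given in the sources used here. The authors deposited raw counts per gene symbol, 1 file per library and without normalization. Replicates stand for separate differentiations in the paper, and replicates differed by more than sampling noise (chi-square per gene of 8.44 in WT and 18.7 in *Patz1* KO).

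From the counts, genes with 10 or more counts in at least 2 libraries were tested with edgeR 4.0.16 (TMM, quasi-likelihood test, limma 3.58.1, R 4.3.3), with genotype as the only term and Benjamini-Hochberg adjustment. The standard error is the absolute log2 fold change over the square root of F. The common biological coefficient of variation was 7.71%. The study's own DESeq2 Wald test was run as an alternative (DESeq2 1.42.0), beside the other alternatives of the closing section, in 13 further fits. Fits were tested on simulated data. Exon lengths and positions come from GENCODE M21 on GRCm38, which held all 39 genes. Matplotlib 3.10.9 drew the plots. The rule for named genes took all tested channel genes and, of each partner list, the 3 with the smallest p. Of the genes counted in the totals, 2 channel genes are not reported here by themselves. The channel genes, partner lists and marker lists were chosen with earlier results of these data known. *Ank3*, the lower calcium channel partners with *Rrad* and *Rem1*, and the markers named one by one were named after their values were seen.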

Additional observations from a re-analysis of the deposited data

How the results depend on the processing

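The calls of *Cacna1h*, *Cacna2d2* and *Cacna2d3* held under every alternative. That of *Cacna1i* held wherever the gene was tested, but *Cacna1i* passed the count threshold only through *Patz1* KO, so this is no independent support. *Cacna1i* was left out where 10 counts in every library were required. With a minimum absolute log2 fold change of 1, 5 channel genes were called higher, these 4 among them, and 0 were called lower, while 0 partner genes were called in either direction and 711 genes in all, in place of 6822. Without each library in turn, 14 to 19 channel genes were called higher and 1 to 3 lower, 7 to 13 partner genes higher and 3 to 6 lower, and 4570 to 7782 genes in all. In those fits the lone library was taken to vary like the other group. The fewest channel genes were called without WT replicate 2, where 15 of the 21 calls were kept. Over the 4 fits without a library, the log2 fold change of *Cacna1d* went from -0.087 to 0.43, that of *Cacnb2* from -0.031 to 0.41, that of *Cacng5* from -0.74 to 0.0055 and that of *Scn7a* from -0.037 to 0.18. *Scn7a* was at -0.017 with the libraries thinned to the smallest total. The cause of these changes was not tested. DESeq2's size factors, filterByExpr, no filter and thinning kept all 21 calls, and library size alone lost *Cacna1a*. Samples of the same replicate number did not deviate together (correlation 0.0407), so the number was not taken as a pairing. With the replicate number as a block, all 21 calls were kept, *Cacnb3* was added (log2 fold change 0.21), as was the partner gene *Unc79* (0.22), and 19 channel genes were called higher and 3 lower. Depth limits the 8 untested genes and those under about 50 counts.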
